A study of Homo sapiens with 8 samples.

Results

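Among the 17788 genes that the authors listed with their FPKM (fragments per kilobase of transcript, relative to sequencing depth, a level scaled by transcript length), 3 are described here: the 28S ribosomal RNA gene RNA28S5 (ENSG00000266658) and the microRNA loci MIR3648-2 (ENSG00000264462) and MIR3687-2 (ENSG00000264063). They were chosen by name, with their high FPKM in the spindle libraries already known, so every value of theirs that involves a spindle library is given as a description, without a test. RNA28S5 was found by its exact name. No gene was listed as plain MIR3648 or MIR3687, and the copies numbered -2 were taken in their place. HCT116 is an established human colorectal carcinoma cell line. Cells were either wild type (WT) or had STAU1 knocked out with CRISPR (STAU1-KO). STAU1 is the gene of Staufen1, which binds RNA duplexes. Whole-cell RNA (input) and RNA from a mitotic spindle preparation were sequenced from both genotypes, with 2 biological replicates in each of the 4 groups. All cells, controls included, had been held for 16 h with RO-3306, a CDK1 inhibitor, then released into 100 µM taxol, which stabilises microtubules, for 15 min, and collected by shaking off mitotic cells. All libraries were made from total RNA depleted of ribosomal RNA, with a kit that keeps the strand. The STAU1-KO libraries carry the code of a single clone, so genotype and clone cannot be told apart.

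RNA polymerase I transcribes the tandem ribosomal DNA repeats into a long precursor, from which the 18S, 5.8S and 28S RNAs are cut and the spacers between them are removed and degraded. The 28S RNA is the main RNA of the large ribosomal subunit and the 18S RNA that of the small subunit, and both lie on the same precursor. In mitosis the nucleolus comes apart, RNA polymerase I is silenced, and partly processed precursors stay with nucleolar proteins around the condensed chromosomes. MicroRNAs are normally cut from hairpins by Drosha and Dicer and pair with target mRNAs through a short seed near the 5′ end.

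The 2 microRNA loci lie beside each other on the plus strand of chromosome 21. In GENCODE 29 on GRCh38, MIR3648-2 spans chr21:8986999-8987178 (180 nt) and MIR3687-2 spans chr21:8987370-8987430 (61 nt), with 191 bases between them. The other copy of the pair, MIR3648-1 and MIR3687-1, has the same 191 bases between its members and is not among the listed genes. In RefSeq, MIR3648-1 lies inside the precursor gene RNA45SN2 and ends before the 18S gene RNA18SN2 starts, that is, in the external spacer. RefSeq places MIR3648-2 inside no annotated precursor gene. The authors placed RNA28S5 (5070 nt) on the unplaced contig GL000220.1, also on the plus strand. RefSeq lists 5 genes for the 28S RNA, 5 for the 18S RNA and 5 for their precursor, besides 6 pseudogenes of the 28S RNA and 11 of the 18S RNA. How reads that match several copies were counted is not given in the sources used here, so the reads of a row may come from any of these copies. The authors used the GRCh37 build, and their table gives no coordinates.

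The mature sequence of MIR3648-2 is shown because its base composition sets it apart from most microRNAs. It is taken from RefSeq (GRCh38.p14, chr21:8987026-8987046, plus strand), with the seed, bases 2 to 8, in capitals. It covers bases 28 to 48 of the 180 nt locus.
hsa-miR-3648: aGCCGCGGggaucgccgaggg
The 21 bases are 81.0% G or C, and only 67 of the 2370 mature microRNA names in the RefSeq table, itself included, are as high or higher. No other name in that table carries the same seed. The 3 loci share this composition over their whole length: G and C make up 69.4% of RNA28S5, 83.9% of MIR3648-2 and 78.7% of MIR3687-2. The median over all listed genes was 45.5%, and that over the 701 listed microRNA genes was 51.3%. Only 9 listed genes were richer in G and C than MIR3648-2, 21 than MIR3687-2 and 114 than RNA28S5. The rows hold RNA of any size that passed a total RNA protocol, so reads on the microRNA loci cannot be assigned to mature microRNA, hairpin or longer precursor.

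The libraries held 5209596 to 14575440 reads over the listed genes, as recovered from the deposited FPKM. STAU1 stood at 31.9 and 28.5 FPKM in WT input and at 4.59 and 4.88 in STAU1-KO input (log2 change -2.44, limma adjusted p = 0.00889). In spindles the 2 genotypes were closer, with 11.5 and 16.2 FPKM in WT and 9.83 and 9.83 in STAU1-KO libraries. Of 8 colorectal epithelial markers, EPCAM, CDH1, KRT8, KRT18 and CDX2 were listed. KRT20, VIL1 and CDX1 were not among the listed genes. Of 14 fibroblast, leukocyte and endothelial markers only COL1A1 was listed, at 0.753 to 0.965 FPKM in input and 2.65 to 6.69 FPKM in spindle libraries. All 4 markers of mitotic cells were listed.

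RNA28S5 was the most abundant RNA of every spindle library by reads. It stood at 2934 and 3289 FPKM in WT input, at 19824 and 139008 FPKM in WT spindles, at 2750 and 2464 FPKM in STAU1-KO input, and at 18626 and 18217 FPKM in STAU1-KO spindles, each pair in the order of replicate 1 and 2. All 4 spindle libraries lay above all 4 input libraries, a description only, since the share of all tested genes with this order was not counted. WT spindle replicate 2 stood far above the other 3 spindle libraries. Relative to the mean of its 2 input libraries, the 28S level was 6.37-fold in WT spindle replicate 1 and 44.7-fold in replicate 2. The same ratio was 7.14-fold and 6.99-fold in the STAU1-KO spindles. WT spindle replicate 1 therefore stood at 1.08 times the mean of the STAU1-KO spindles and replicate 2 at 7.55 times that mean. The WT spindle mean of 79416 ± 84276 FPKM (SD, n = 2) had an SD larger than itself, whereas the STAU1-KO spindle mean was 18421 ± 289 FPKM (SD, n = 2).

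MIR3648-2, the upstream locus of the pair, was higher in WT than in STAU1-KO spindles in both replicates. Its level was 1931 and 1709 FPKM in WT input, 40620 and 90176 FPKM in WT spindles, 1327 and 1296 FPKM in STAU1-KO input, and 12918 and 13593 FPKM in STAU1-KO spindles. The spindle and input libraries did not overlap, and neither did the spindle libraries of the 2 genotypes. How many of all tested genes show the same orders was not counted, so neither order is a result about this locus. The WT spindles stood at 22.3-fold and 49.5-fold of the mean WT input, and the STAU1-KO spindles at 9.85-fold and 10.4-fold of their own. Relative to the mean of the STAU1-KO spindles, WT spindle replicate 1 was at 3.06 times and replicate 2 at 6.80 times.

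MIR3687-2, the downstream locus, had the highest FPKM of all genes in 3 of the 4 spindle libraries and the second highest, after RNA28S5, in WT spindle replicate 2. It stood at 2164 and 1749 FPKM in WT input, 46843 and 111246 FPKM in WT spindles, 1745 and 1600 FPKM in STAU1-KO input, and 23232 and 26715 FPKM in STAU1-KO spindles. As with MIR3648-2, no spindle library overlapped the input and the WT spindles lay above the STAU1-KO spindles. The share of all tested genes with these orders was not counted here either. The WT spindles were at 23.9-fold and 56.9-fold of the mean WT input, and the STAU1-KO spindles at 13.9-fold and 16.0-fold of theirs. WT spindle replicate 1 stood at 1.88 times the STAU1-KO spindle mean, and replicate 2 at 4.45 times.

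**Figure D1:**
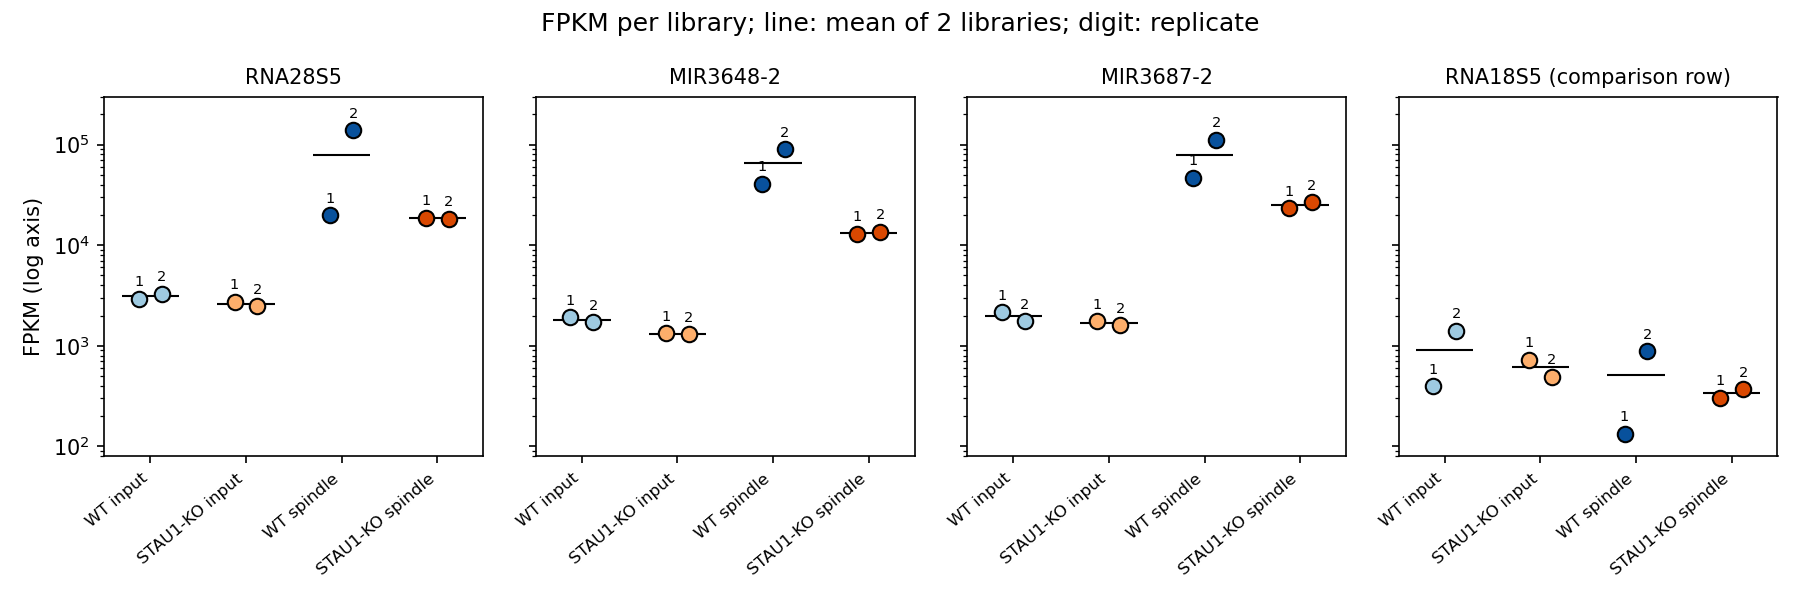
FPKM of the 3 loci and of RNA18S5 in each library, on a log axis; points are libraries, digits the replicate number and lines the mean of 2 libraries. The spindle libraries of the 3 loci lie above all input libraries, with RNA28S5 reaching 139008 in WT spindle replicate 2, whereas the RNA18S5 spindle libraries lie within or below the range of its input libraries.

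The level of the 3 loci in spindles relative to input stayed above 1 in every spindle library under each of 4 scalings. These were the authors' own, equal sums over protein-coding genes, equal sums without the 3 loci, and equal sums over all genes. For RNA28S5 the ratio in WT spindle replicate 1 ranged from 6.37-fold under the authors' scaling to 15.1-fold with equal protein-coding sums. It lay below both STAU1-KO spindles by the authors' scaling and by equal sums over all genes, and above both by the other 2. The ratios of MIR3648-2 and MIR3687-2 in both WT spindles lay above those in both STAU1-KO spindles under all 4 scalings. All 4 scalings rest on the same values and change each library by 1 factor, so they are no separate support. The share of all genes that keep this order was not counted. With equal protein-coding sums the mean ratios in WT were 45.2-fold for RNA28S5, 68.4-fold for MIR3648-2 and 76.7-fold for MIR3687-2, and in STAU1-KO 11.5-fold, 16.5-fold and 24.4-fold in the same order. In bulk RNA of a preparation, more of these RNAs and less of all other RNA cannot be told apart, nor can fewer cells and less RNA per cell. The amount of ribosomal RNA that depletion left in each library was not measured apart from these values, so its part in them was not tested.

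The 3 loci took very different parts of the libraries by reads. RNA28S5 held 1.42% and 1.64% of reads in WT input, 13.6% and 46.1% in WT spindles, 1.42% and 1.29% in STAU1-KO input, and 11.0% and 10.8% in STAU1-KO spindles. The exact 95% binomial intervals of these shares reached at most 0.0380 percentage points to either side and cover counting error only. RNA28S5 ranked first by reads in all 4 spindle libraries and at rank 3 or 4 in input. In WT spindle replicate 2 it held 3045493 reads, and the genes next in order were MIR3648-2 with 70141, the nuclear RNA MALAT1 with 48426, the ribonuclease MRP RNA RMRP with 39293 and the U3 small nucleolar RNA SNORD3A with 35055. MIR3648-2 held 3010 to 3506 reads in the input libraries and 19584 to 70141 in the spindle libraries. MIR3687-2 held 1056 to 1467 reads in input and 13044 to 29324 in spindles. Without the 3 loci, 4430636 and 3455416 reads remained in the WT spindles, fewer than in any other library.

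**Figure D2:**
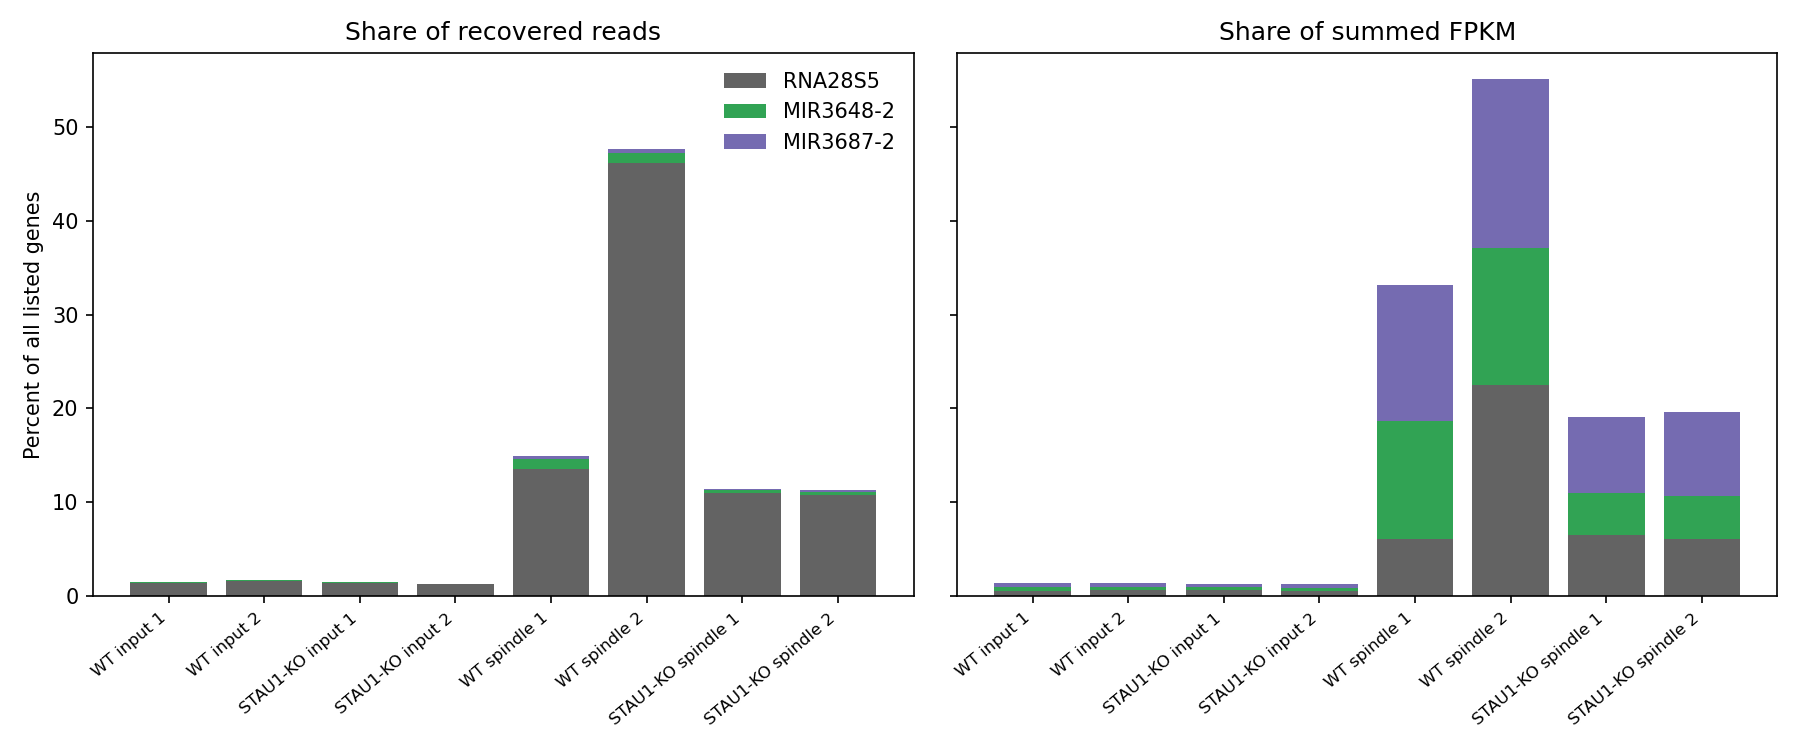
Share of each library's reads (left) and of its summed FPKM (right) held by the 3 loci, as percent of all 17788 listed genes, in stacked bars, 1 per library. The 3 loci together took 47.6% of reads in WT spindle replicate 2 and at most 1.68% in any input library, and by FPKM the short microRNA loci make up the larger part.

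Because FPKM divides by length, the short loci weighed more in summed FPKM than in reads. Together the 3 loci made up 1.34% and 1.35% of summed FPKM in WT input, 33.1% and 55.2% in WT spindles, 1.32% and 1.26% in STAU1-KO input, and 19.1% and 19.6% in STAU1-KO spindles. The authors' deposited TPM, which are group means scaled to a common sum, carry this weight. In the authors' deposited table the 3 loci took 47.6% of the TPM of WT spindles and 1.35% of WT input, against 19.3% of STAU1-KO spindles and 1.29% of STAU1-KO input. Protein-coding genes made up 24.7% of the TPM in WT spindles, 44.9% in WT input, 44.95% in STAU1-KO spindles and 49.7% in STAU1-KO input. A change in TPM of any other gene between the groups is therefore relative to these shares. The authors' FPKM is not scaled to such a sum: for genes other than the 3 loci, the median log2 ratio of WT spindle to input was 0.13 by TPM and 0.01 by FPKM, and in STAU1-KO 0.53 by TPM and -0.03 by FPKM.

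The ratios among the loci differed between libraries. MIR3648-2 stood at 0.658 and 0.519 of the RNA28S5 level in WT input, at 2.05 and 0.649 in WT spindles, at 0.482 and 0.526 in STAU1-KO input, and at 0.694 and 0.746 in STAU1-KO spindles. WT spindle replicate 1 stood apart from the other 7 libraries in this ratio. Its RNA28S5 level was 1.08 times the STAU1-KO spindle mean, and its MIR3648-2 level 3.06 times. The ratio of MIR3687-2 to RNA28S5 was 0.738 and 0.532 in WT input, 2.36 and 0.800 in WT spindles, 0.635 and 0.649 in STAU1-KO input, and 1.25 and 1.47 in STAU1-KO spindles. Here all spindle libraries lay above all input libraries.

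The ratio of the 2 neighbouring microRNA loci was steadier. MIR3687-2 stood at 1.12 and 1.02 times MIR3648-2 in WT input, 1.15 and 1.23 in WT spindles, 1.32 and 1.23 in STAU1-KO input, and 1.80 and 1.97 in STAU1-KO spindles. The 2 WT spindle libraries, which differed most in the level of each locus, had close ratios. The STAU1-KO spindles, at 1.88 ± 0.118 (SD, n = 2), lay above the other 6 libraries.

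**Figure D3:**
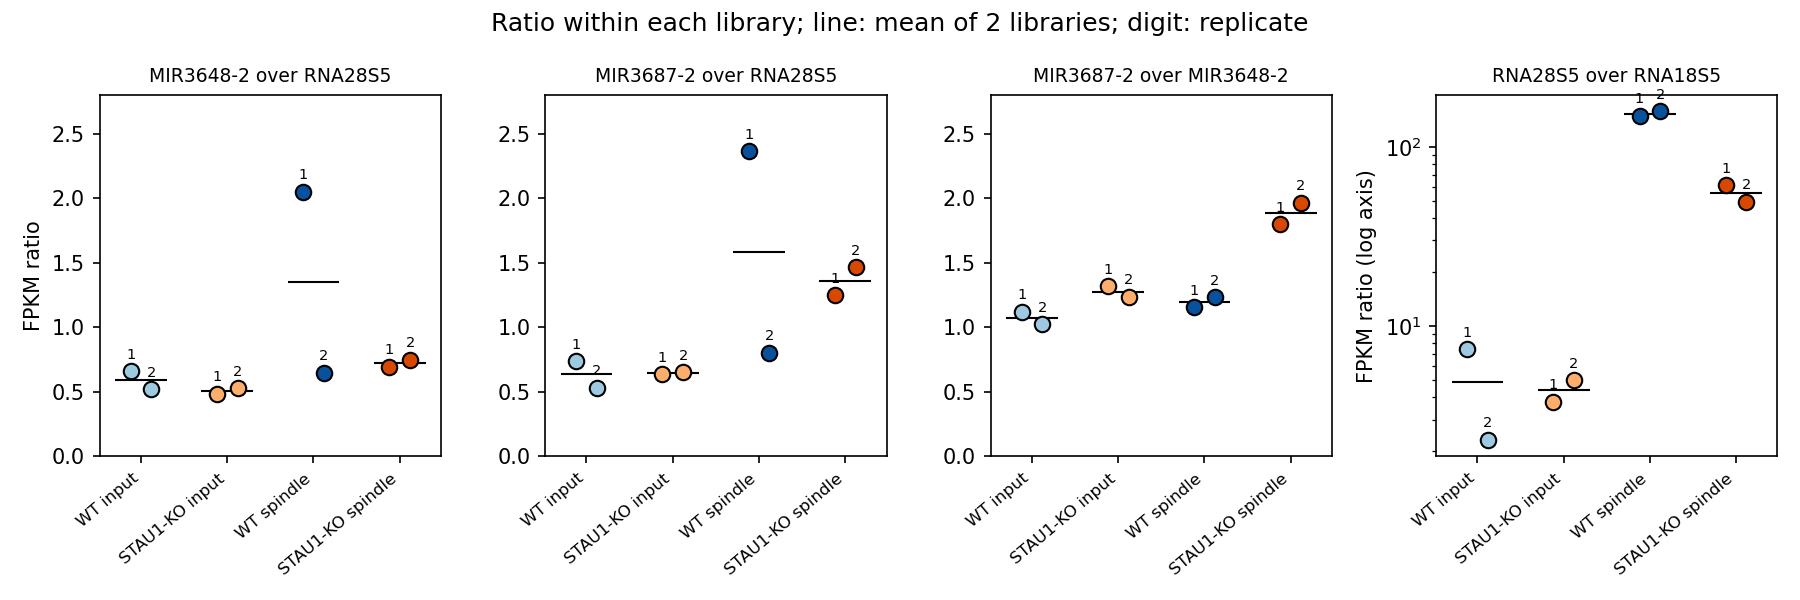
FPKM ratios within each library, between the microRNA loci and RNA28S5, between the microRNA loci, and between RNA28S5 and RNA18S5 (log axis); points are libraries, digits the replicate number and lines the mean of 2 libraries. WT spindle replicate 1 stands high in both ratios to RNA28S5, at 2.05 and 2.36, and the ratio of RNA28S5 to RNA18S5 is 49.3 or more in every spindle library.

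RNA18S5 (ENSG00000272060, 1869 nt), the 18S gene on the same contig, is cut from the same precursor as the 28S RNA but showed another order of levels. It stood at 396 and 1420 FPKM in WT input, 133 and 883 FPKM in WT spindles, 727 and 494 FPKM in STAU1-KO input, and 305 and 370 FPKM in STAU1-KO spindles. The spindle and input libraries of WT cells overlapped, and those of STAU1-KO cells did not. How many of all tested genes separate in this way was not counted. The log2 change from input to spindle was -1.13 in WT (SE 0.97, limma adjusted p = 0.347) and -0.83 in STAU1-KO (SE 0.97, adjusted p = 0.506), and neither passed. RNA28S5 was 7.41 and 2.32 times as abundant as RNA18S5 per length in WT input, 149 and 157 times in WT spindles, 3.78 and 4.99 times in STAU1-KO input, and 61.0 and 49.3 times in STAU1-KO spindles. The 2 WT spindle libraries had close values of this ratio, and RNA18S5 itself differed 6.63-fold between them. The mean RNA18S5 level in WT spindles relative to input moved between 0.511 and 1.04 times over the 4 scalings. The other 2 listed genes of the contig, AL592188.3 and AL592188.7, held at most 4 reads in any library, and AL592188.7 passed the WT comparison (adjusted p = 0.00214) on 1 read in each WT spindle library. AL592188.7 was tested only because of its FPKM in those 2 libraries, so that call is no result.

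WT spindle replicates 1 and 2 differed more for RNA28S5 than for the microRNA loci. Replicate 2 stood at 7.01 times replicate 1 for RNA28S5, at 2.22 times for MIR3648-2 and at 2.37 times for MIR3687-2. On the log2 scale this was a difference of 2.81 for RNA28S5, and 0.645% of the 17217 tested genes differed as much or more between these libraries. For MIR3648-2 (difference 1.15) that share was 8.38%, and for MIR3687-2 (difference 1.25) it was 7.09%. In the other 3 groups no locus of the 3 differed by more than 0.31 between replicates.

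The mitochondrial ribosomal RNAs, which mitochondria transcribe from their own genome and which are no product of the ribosomal DNA, differed in the same direction. MT-RNR1, the RNA of the small mitochondrial subunit, was at 9.68 FPKM in WT spindle replicate 1 and at 169 FPKM in replicate 2, a ratio of 17.4. MT-RNR2, that of the large subunit, was at 18.7 and 202 FPKM, a ratio of 10.8. The 13 mitochondrial mRNAs, looked at after these values were seen, were all higher in replicate 2, with a median ratio of 2.89 and a range of 1.67 to 4.01. The part of these differences in the level of RNA28S5 was not tested. In STAU1-KO cells MT-RNR1 fell from 125 and 98.7 FPKM in input to 6.22 and 7.20 FPKM in spindles (log2 change -3.86, SE 1.14, adjusted p = 0.0320). MT-RNR2 went from 121 and 94.8 FPKM to 13.5 and 14.9 FPKM without passing (log2 change -2.83, SE 0.97, adjusted p = 0.051). In WT cells neither passed, with log2 changes of -1.72 (adjusted p = 0.232) and -0.40 (adjusted p = 0.737). Without WT spindle replicate 2 the median log2 change of the 2 RNAs in WT cells was -2.90, beside -0.04 over all genes. Without replicate 1 it was 0.78, beside -0.05. Each of these fits left 1 WT spindle library, so no call is given.

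**Figure D4:**
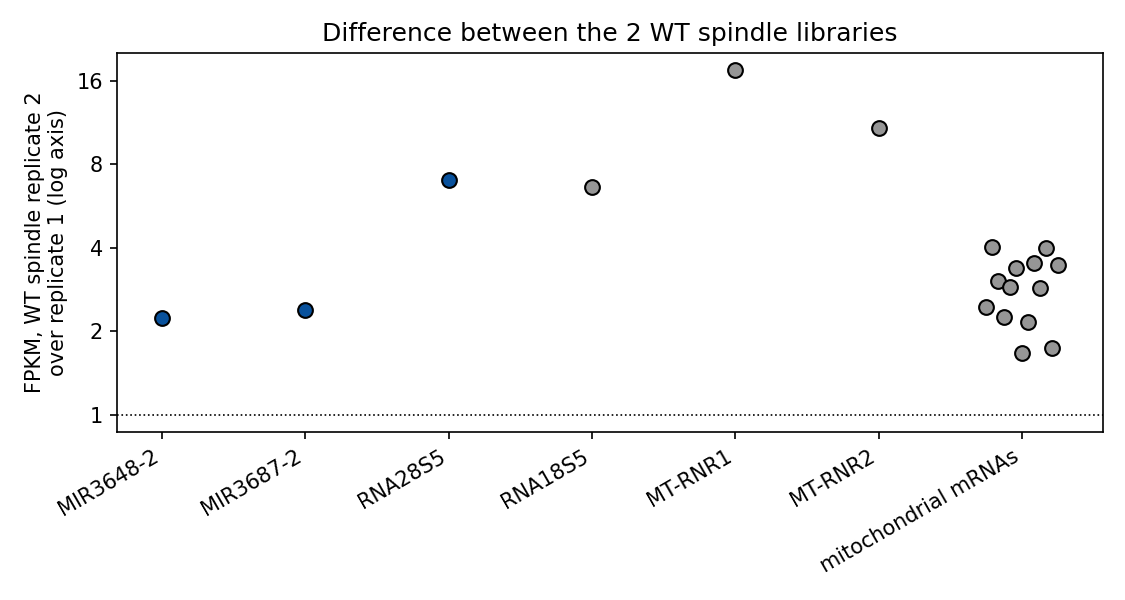
FPKM in WT spindle replicate 2 divided by that in replicate 1, on a log axis, for the 3 loci (blue), RNA18S5, the 2 mitochondrial ribosomal RNAs and the 13 mitochondrial mRNAs (grey); the dotted line marks equal levels. RNA28S5 at 7.01 and RNA18S5 at 6.63 lie close together, the 2 microRNA loci near 2, and all plotted RNAs above 1.

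The remaining 15 nuclear ribosomal RNA rows were all named as 5S pseudogenes, and they held little signal. The 5S RNA is made by RNA polymerase III from genes apart from the precursor. The highest of the 120 values was 24 reads, no value exceeded 13.8 FPKM, and 58 were 0. With RNA18S5, 12 of these 16 rows passed the filter on low values. Rows of so few reads can pass it through 1 group alone, so the counts over these rows are a description. In WT cells 1 was higher and 3 were lower in spindles. Of all tested genes 60.3% were called, 27.6% higher and 32.7% lower. The 1 was RNA5SP168, with 1 read in each WT spindle library and 0 in WT input. It passed the filter only through the WT spindle libraries, so its call is no result. In STAU1-KO cells 0 were higher and 3 lower, against 49.2% of all genes called, 22.1% higher and 27.1% lower. RNA5SP108 fell in both genotypes, from 13.8 and 12.9 FPKM to 1.21 and 3.96 FPKM in WT (log2 change -2.12, adjusted p = 0.00275) and from 11.1 and 13.6 FPKM to 4.54 and 4.27 FPKM in STAU1-KO (-1.30, adjusted p = 0.023). With equal protein-coding sums, 2 of 11 tested rows were higher and 1 lower in WT, and 1 higher and 1 lower in STAU1-KO. All ribosomal RNA rows other than RNA28S5, the mitochondrial ones included, made up 0.131% ± 0.0619 of summed FPKM in spindles and 0.215% ± 0.0937 in input (SD, n = 4), a difference that a two-sided exact permutation test did not call (p = 0.171). That sum holds the 3 loci, so the difference draws on their spindle levels, which were known when they were chosen. With the 3 loci left out of the sum, the shares were 0.217% and 0.218% (exact permutation p = 0.971). By genotype, the first share was 0.122% and 0.340% in WT input against 0.0561% and 0.207% in WT spindles, and 0.228% and 0.170% in STAU1-KO input against 0.122% and 0.138% in STAU1-KO spindles.

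Among the other 699 listed microRNA genes none came near MIR3648-2 or MIR3687-2. The highest was MIR3609 in each spindle library, at 102 to 199 FPKM, and AL662800.1 in each input library, at 63.0 to 74.8 FPKM. All 699 together held 986 to 2150 reads per library, while the 2 loci held 4101 to 99465. Of the 699 rows, 630 passed the filter on low values. On so short a row 1 read is worth more FPKM in WT spindles than in WT input: for the 61 nt of MIR3687-2, 2.33 and 3.79 FPKM against 1.89 and 1.66 FPKM. Rows could thus pass through the spindle libraries alone, and no count or median over them is given for a comparison that involves spindles. The 4 with the smallest p in WT, MIR4802, AL137024.1, MIR4684 and AC136932.1, were listed at 0 in both WT input libraries and at 4.84 to 6.04 FPKM in WT spindles. These are levels of a few reads.

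Only the input libraries allow a test of the 3 loci between genotypes that their choice did not use. In each of the 3, both STAU1-KO input libraries lay below both WT input libraries. The share of all tested genes with this order was not counted, so the order is no result about the 3 loci. The means in STAU1-KO and WT input were 2607 ± 202 FPKM against 3112 ± 251 for RNA28S5, 1311 ± 21.8 against 1820 ± 157 for MIR3648-2, and 1673 ± 103 against 1956 ± 294 for MIR3687-2 (SD, n = 2). None passed, with log2 changes of -0.26 for RNA28S5 (SE 1.23, adjusted p = 0.988), -0.47 for MIR3648-2 (SE 0.85, adjusted p = 0.931) and -0.22 for MIR3687-2 (SE 0.98, adjusted p = 0.986), while 0.192% of all tested genes were called, 0.0813% higher and 0.11% lower. These standard errors take in the spread of the WT spindle libraries. With the 4 input libraries fitted alone the standard errors were 0.12, 0.10 and 0.14 and the adjusted p were 0.279, 0.0937 and 0.391 in the same order. The log2 fold changes in the authors' deposited table were -0.26, -0.47 and -0.23, with adjusted p of 0.99993, 0.984 and 0.99993.

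Genes that make and process ribosomal RNA were lower more often than higher in WT spindles by the authors' scaling. Of 16 genes for RNA polymerase I and its initiation factors, 1 rose and 9 fell from input to spindle in WT cells (median log2 change -0.68), and 2 rose and 5 fell in STAU1-KO cells. Of all tested genes 27.6% were higher and 32.7% lower in WT, and 22.1% and 27.1% in STAU1-KO, so that the share of these genes that fell in STAU1-KO cells was near that of all genes. The initiation factor gene RRN3 fell from 35.2 and 33.0 FPKM in WT input to 8.99 and 12.2 FPKM in WT spindles (log2 change -1.61, SE 0.15, adjusted p = 0.000289). The subunit genes POLR1D (log2 change -1.53) and ZNRD1 (-1.96) also fell in WT cells, and TAF1C, which encodes a subunit of the promoter selectivity factor, rose (1.31, adjusted p = 0.000402). Under equal protein-coding sums, 7 were higher and 4 lower in WT cells (median 0.26) and 8 higher and 2 lower in STAU1-KO cells (median 0.61). The sign of this group's median change thus rests on the scaling. In WT its median lay below that of all genes under both scalings, at -0.68 beside 0 and at 0.26 beside 0.75. In STAU1-KO it was -0.05 beside -0.02 by the authors' scaling, and 0.61 beside 0.51 with equal protein-coding sums. Scaling to equal protein-coding sums moved the median of all genes to 0.75 in WT and 0.51 in STAU1-KO cells. Under it 52.4% of all tested genes were higher and 12.3% lower in WT, against 39.7% and 10.3% in STAU1-KO.

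Of 16 genes for abundant nucleolar proteins, 0 rose and 12 fell in WT cells (median -1.16), and 0 rose and 4 fell in STAU1-KO cells (median -0.32). Beside the shares of all genes just given (32.7% lower in WT, 27.1% in STAU1-KO), the share that fell in STAU1-KO cells was near the background, and the counts became 2 higher and 11 lower when either WT spindle library was left out of the fit, with 36.6% and 36.2% of all genes then lower. NOP10, a protein of the box H/ACA particles that guide pseudouridylation, fell from 188 and 154 FPKM to 15.5 and 24.4 FPKM (log2 change -3.06, SE 0.22, adjusted p = 0.000147). NHP2, of the same particles, fell by 2.55 on the log2 scale (adjusted p = 0.00167). GAR1, a further protein of these particles, fell by 1.23 in WT cells (adjusted p = 0.000521) and stood at 8.20 and 7.09 FPKM in STAU1-KO spindles beside 7.58 and 8.08 FPKM in their input. Of 18 genes for trimming and decay of the spacers, 1 rose and 15 fell in WT (median -0.90), and 2 rose and 10 fell in STAU1-KO. The exosome subunit genes EXOSC1 (log2 change -1.23) and EXOSC8 (-1.09), and C1D (-1.48) and MPHOSPH6 (-1.26), whose products work with the nuclear exosome, were among those that fell in WT cells. With equal protein-coding sums, 4 nucleolar genes were higher and 6 lower in WT (median -0.24), and 5 decay genes were higher and 4 lower (median 0.05). In STAU1-KO cells the same scaling gave 7 higher and 2 lower for the nucleolar genes and 8 higher and 3 lower for decay, the opposite of the authors' scaling. The shares of all genes under it were those given for the polymerase genes, 52.4% higher and 12.3% lower in WT and 39.7% and 10.3% in STAU1-KO.

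The noncoding RNAs that take part in cleaving the precursor were higher more often than lower. Of 12 tested, 5 rose and 0 fell in WT cells (median 1.19), and 4 rose and 1 fell in STAU1-KO cells (median 0.89), beside 27.6% and 22.1% of all genes higher. Among the 5 was SNORA62, close to the filter minimum of 1 FPKM. It was at 0 and 0.669 FPKM in WT input and at 4.70 and 1.53 FPKM in WT spindles. With equal protein-coding sums, 10 rose and 0 fell in WT (median 1.72), and 7 rose and 0 fell in STAU1-KO, beside 52.4% and 39.7% of all genes higher. SNORA73B, one of the U17 copies, was at 1078 and 1115 FPKM in WT input and at 2750.4 and 2468 FPKM in WT spindles (log2 change 1.25, SE 0.38, adjusted p = 0.0299). SNORD13, the U13 small nucleolar RNA, rose in WT cells (1.33, adjusted p = 0.0178) and with STAU1 knocked out (1.85, adjusted p = 0.00682). SNORD3C is a low copy of the U3 gene, at 3.38 and 2.43 FPKM in WT input and 14.9 and 12.7 FPKM in WT spindles (log2 change 1.93, adjusted p = 0.000212), and may share reads with the other U3 copies. Among 10 genes of microRNA maturation, 4 rose and 2 fell in each genotype, and with equal protein-coding sums 7 were higher in WT cells, 6 were higher after the knockout, and 0 were lower. The share of all genes that was higher was 27.6% in WT and 22.1% in STAU1-KO by the authors' scaling, and 52.4% and 39.7% by equal protein-coding sums. DROSHA, the nuclear enzyme that cuts hairpins from precursors, rose by 1.32 in WT and by 1.33 in STAU1-KO cells. Its partner DGCR8 rose by 0.76 and 0.74 (log2 change, adjusted p = 0.000972 or lower). PRKRA and TARBP2, which encode partners of Dicer, fell by 1.18 (adjusted p = 0.000449) and 0.80 (adjusted p = 0.000942) in WT and by 1.12 (adjusted p = 0.000889) and 0.77 (adjusted p = 0.00169) in STAU1-KO cells.

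Between STAU1-KO and WT spindles, where 16.1% of all tested genes were called, 10.6% higher and 5.52% lower in STAU1-KO, these groups showed 3 higher and 0 lower for RNA polymerase I, 3 and 0 for nucleolar proteins, 6 and 0 for decay, 0 and 1 for the cleavage RNAs, and 1 and 1 for microRNA maturation. The size of these differences varied with the WT spindle library used. Without WT spindle replicate 2, the median log2 difference was 0.66 for RNA polymerase I, 0.79 for nucleolar proteins and 0.53 for decay. The median of all genes was then 0.04. Without replicate 1 the medians were 0.09, 0.13 and 0.26 in the same order, beside 0.05 over all genes. With equal protein-coding sums, higher and lower counts were 1 and 1 for RNA polymerase I, 5 and 2 for nucleolar proteins, 3 and 1 for decay and 0 and 1 for the cleavage RNAs. Of all tested genes, 6.53% were higher and 10.5% lower under that scaling. GAR1 was higher in STAU1-KO spindles by 1.31 on the log2 scale (adjusted p = 0.00626), and RRN3 by 0.90 (adjusted p = 0.016). Between the inputs, where 0.192% of all tested genes were called, 1 of the other 630 tested microRNA genes was higher in STAU1-KO. No member of the remaining lists passed there, and both results are near the background. None of the 30 genes named from the lists passed the test of whether the spindle-to-input change differed between genotypes. How many of all tested genes passed that test was not counted, so this is no result about the named genes.

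The genes whose profile over the 8 libraries was most like that of each locus were mostly protein-coding genes of far lower level. By Pearson's r of log2(FPKM + 1), given as a description, the 5 nearest RNA28S5 were CHERP (r = 0.998), PLEKHG2, ATP11A, SNAPC4 and GTF2IRD1. The nearest to MIR3648-2 were ADGRL1 (r = 0.999), FAM65A, COL1A1, MLXIP and AHDC1, and the nearest to MIR3687-2 were SKI (r = 0.999), SEC16A, MICAL3, WDR90 and RP11-440L14.1. CHERP stood at 4.48 and 4.68 FPKM in WT input, 10.7 and 23.4 FPKM in WT spindles, 4.15 and 4.21 FPKM in STAU1-KO input, and 10.2 and 11.2 FPKM in STAU1-KO spindles. An r of 0.95 or more was reached by 336 of 17214 genes with RNA28S5, by 648 with MIR3648-2 and by 883 with MIR3687-2. Between the loci themselves, r was 0.992 for the microRNA loci and 0.968 for each of them with RNA28S5, and it was -0.17 between RNA28S5 and RNA18S5.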

How the data were processed

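RNA was sequenced in 8 libraries of 4 groups, with groups and replicate numbers taken from the sample titles. Per the submitters' processing notes, the tools were FastQC, TopHat, featureCounts and DESeq2 with GRCh37, without versions. The authors deposited FPKM per library and the mean FPKM and TPM per group for 17788 genes, scaled by their size factors, with the length and percent GC of each gene. Their comparison tables hold 63677 genes; per the file headers, these give a base mean (a normalised signal), a log2 fold change with its error, and p-values.

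The design foresaw limma on log2(FPKM + 1), and limma 3.58.1 (R 4.3.3, trend) was fitted to 4 group means over all 8 libraries, for 17217 genes with FPKM of at least 1 in at least 2 libraries. The fit left 4 residual and 2.25 prior degrees of freedom. Tests were two-sided with Benjamini-Hochberg adjustment over all tested genes, called at an adjusted p under 0.05, and all adjusted p-values are from limma unless credited to the authors. P-values over 2 libraries a group measure the spread between these replicates. Reads were recovered as FPKM times base mean over mean FPKM times size factor, and 100% came out whole (tolerance 0.01). Depth and shares rest on these reads, and the binomial intervals of shares (Clopper-Pearson) take reads as independent molecules. The fit was tested on simulated data with the same scatter in all libraries, without the wide spread of the WT spindle libraries. Over the 4 comparisons it found 83% to 93% of 4-fold changes and 10% to 24% of 2-fold changes. The 10% was for STAU1-KO against WT input. In WT spindle against input it found 16 and 85 of 100 genes changed 2-fold and 4-fold, and called 28 unchanged genes. For STAU1-KO against WT spindles these numbers were 21, 93 and 25. In both, false calls were a larger part of all calls than the threshold of 0.05 aims at. STAU1-KO spindle against input had 9 false calls and the input comparison 4. Scripts ran in Python 3.11.15 with pandas 2.3.3, scipy 1.17.1 and matplotlib 3.10.9.

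Genes named are the 3 loci, their contig neighbours, the 5 rows with most reads in WT spindle replicate 2, the 5 genes most correlated with each locus, STAU1, and up to 4 members of each list by smallest p in WT spindle against input (both mitochondrial ribosomal RNAs). The loci, lists and rules were chosen with earlier results of these data known. The list counts and medians under other scaling and without single WT spindle libraries, and the mitochondrial mRNAs, were added after seeing the data. Alternatives were another pseudocount, no filter, equal protein-coding sums, a replicate block, limma voom on recovered reads, the input groups alone, and leaving out each library. GENCODE 29 and RefSeq supplied positions and the sequence.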

Additional observations from a re-analysis of the deposited data

Results flagged for a closer look

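Among 11 profiles compared over libraries of both genotypes, 4 over the spindle and 7 over the input libraries, a Dixon test at the 95% level set 1 library apart in 2 spindle profiles and in 0 input profiles. Chance marks about 1 in 20 such groups. MT-RNR1 was at 169 FPKM in WT spindle replicate 2, beside 6.22 to 9.68 FPKM in the other 3 spindle libraries. MT-RNR2 was at 202 FPKM there, beside 13.5 to 18.7 FPKM. The spindle values of RNA28S5, MIR3648-2 and MIR3687-2 were not put to this test; all 3 were highest in the same library, RNA28S5 with 139008 FPKM beside 18217 to 19824 FPKM. What sets this library apart was not tested.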

How the results depend on the processing

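The input comparison of RNA28S5, MIR3648-2 and MIR3687-2 kept its negative sign and stayed above the threshold in all 14 alternatives each; the lowest adjusted p was 0.0937, for MIR3648-2 with the input groups fitted alone. Over single libraries left out, the log2 change ranged from -0.34 to -0.17 for RNA28S5, -0.56 to -0.38 for MIR3648-2 and -0.37 to -0.07 for MIR3687-2. Genes called between STAU1-KO and WT input, 33 of 17217 (1522 at an unadjusted p under 0.05), became 8 with equal protein-coding sums, 139 with limma voom on recovered reads, 10 with the replicate block, 173 with the input groups alone, and 2 to 495 leaving out 1 library; the 495 and 465 came without WT spindle replicate 1 and 2, and 2 without any other. For STAU1-KO against WT spindles, 2778 genes became 1828 with the replicate block and 0 to 6543 leaving out 1 library. The 0 came by limma without STAU1-KO spindle replicate 1 or 2 (3792 and 3926 at an unadjusted p under 0.05), 784 and 785 without a STAU1-KO input library, 1347 and 1356 without a WT input library, and 6543 and 5712 without WT spindle replicate 1 and 2. For STAU1-KO spindle against input, 8473 genes became 4937 to 11099, with 4937, 4965, 5462 and 5172 when a STAU1-KO library was left out. For WT spindle against input, 10384 genes ranged from 7714 to 11653. Same-numbered libraries did not deviate together (correlations -0.05 to 0.02). That check cannot show whether libraries of the same number came from the same culture or preparation. The replicate block changed no call of the 3 loci. With equal protein-coding sums, higher and lower calls were 9124 and 2147 in WT spindle against input (4755 and 5629 by the authors' scaling), 6910 and 1795 in STAU1-KO (3803 and 4670), and 1137 and 1831 in STAU1-KO against WT spindles (1828 and 950); the median of all genes moved to 0.75, 0.51 and -0.13. The difference in the share of other ribosomal RNA was negative and not called in all 10 alternatives. It went from -0.084 to -0.001 percentage points with the 3 loci left out of the sum, so it nearly vanished there. edgeR and DESeq2 on recovered reads were not run, since the deposited values are FPKM.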
